A study of Homo sapiens with 12 samples.

Results

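The genes described here are 37 established transcriptional targets of the tumour suppressor p53, listed by symbol. The list was drawn up with earlier results of these data known, so the shares of its genes called below are descriptions. All 37 were found among the 57992 gene entries of the count table, and 36 had enough counts to be tested. They were followed through 3 human prostate adenocarcinoma cell lines, each with 3 biological replicates, whose poly(A) RNA was sequenced on a HiSeq2500. LNCaP and C4-2 are labelled as sensitive and MR49F as resistant to enzalutamide, an antiandrogen that blocks the androgen receptor. LNCaP grows in response to androgen. C4-2 was derived from LNCaP and is castration-resistant, and MR49F is a LNCaP derivative selected for growth under enzalutamide. All 3 lines thus share the LNCaP genome as their origin, and each is 1 established line, so a difference between lines cannot be told apart from other differences that arose as each line was derived. The labels give no culture medium, passage, drug dose or treatment of the cells before harvest. The labels name C4-2R as a further resistant line. It was not analysed here, because none of the columns used carries its name.

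p53 is a transcription factor that is held at a low level by MDM2, a ubiquitin ligase that marks it for degradation, and by the MDM2 relative MDM4. DNA damage and other stresses release it from MDM2, and it then binds its response elements and raises genes for cell cycle arrest, apoptosis, DNA repair and metabolic control, together with MDM2 itself. Whether p53 is intact in each line cannot be read from these gene counts and was not checked here.

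Total counts lay between 6990461 and 9375912 in 8 of the 9 libraries, while C4-2 replicate 1 held 42770072, 4.56 times the next largest. Each tested p53 target gene had at least 18 counts in every library. All 13 luminal prostate markers were detected at a summed level of 8464 to 11532 CPM (counts scaled to library size by the trimmed mean of M-values). Of 14 fibroblast and endothelial markers, 8 had no LNCaP count, and the summed CPM was 31.5 to 35.4 for LNCaP, 8.64 to 10.8 for MR49F and 25.4 to 31.0 for C4-2. Single markers went different ways. Of 6 tested against LNCaP, 4 fell and 1 rose in MR49F, and 2 fell and 2 rose in C4-2 (edgeR adjusted p under 0.05). In MR49F COL1A1, VWF and COL3A1 fell (log2 fold changes -2.15, -2.94 and -2.68) and LUM rose (2.24). In C4-2 COL3A1 and PDGFRB rose (1.77 and 1.65) and COL1A1 was among those that fell (-0.64). The part of these markers in the results was not tested. Immune markers summed to 0.414 to 1.48 CPM in LNCaP, 1.42 to 2.49 in MR49F and 4.56 to 6.27 in C4-2. The defining marker PTPRC was without a count in LNCaP and C4-2. CD8A, the 1 immune marker with enough counts to be tested, was higher than in LNCaP in MR49F and in C4-2 (log2 fold changes 2.92 and 4.32, edgeR adjusted p = 5.74e-04 and 2.29e-07). In RNA from a whole culture, fewer cells that express a gene and less of its RNA per cell cannot be told apart.

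p53 binds a response element made of a pair of 10-base units, and such pairs were looked for in the RefSeq promoter windows (GRCh38.p14, 250 bases before to 50 bases after a start site) that were held for 30 of the 37 genes. A pair was counted where 2 units of the p53 consensus lay side by side with no spacer, with the central C and G of each unit present and at most 3 of the 20 bases off the consensus. The consensus reads the same on both strands, and no other motif was searched. A pair was found for 9 of the 30 genes (30.0%), against 373 of 27305 genes with a window (1.37%). An exact single unit was found for 7 of the 30 (23.3%), against 8.06% of all genes. These genes are listed because p53 is known to act on them, so the share is a description, and the absence of a pair says only that the letters are not in these windows. The 9 pairs are shown as matches to the sequence that p53 binds, and whether p53 binds them was not tested. Each is given 5′ to 3′ on the gene's strand with up to 5 flanking bases, and capitals mark the bases that match the consensus.
MDM2, chr12:68808923-68808942, plus strand: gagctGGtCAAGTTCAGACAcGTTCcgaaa
SESN1, chr6:109009018-109009037, minus strand: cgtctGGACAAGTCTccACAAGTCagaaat
FAS, chr10:88991309-88991328, plus strand: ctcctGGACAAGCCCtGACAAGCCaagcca
AEN, chr15:88621306-88621325, plus strand: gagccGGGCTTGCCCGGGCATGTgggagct
DDB2, chr11:47214969-47214988, plus strand: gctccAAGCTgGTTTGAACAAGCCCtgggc
RPS27L, chr15:63157527-63157546, minus strand: aggagGGcCTAGagCAGACAAGCCCgcccc
FDXR, chr17:74872996-74873015, minus strand: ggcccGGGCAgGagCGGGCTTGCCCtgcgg
PMAIP1, chr18:59899811-59899830, plus strand: gtcggGAGCgTGTCCGGGCAgGTCgcgctc
GDF15, chr19:18386186-18386205, plus strand: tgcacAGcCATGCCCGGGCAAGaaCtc

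By GENCODE 29 on the same assembly, the MDM2 and SESN1 pairs lie in introns, ahead of an internal start site. The PMAIP1 pair lies upstream of the gene, those of AEN, DDB2, RPS27L and FDXR in untranslated exon sequence, that of GDF15 in a coding exon, and that of FAS in an exon of a non-coding FAS transcript that also overlaps ACTA2 on the other strand. The DDB2 pair had 1 base off the consensus, those of MDM2, FAS and AEN had 2, and the other 5 had 3. The stretches before the internal start sites of SESN1 (bases -250 to -1, chr6:109008989-109009238) and MDM2 (bases -250 to -51, chr12:68808767-68808966) show the pairs in place, with capitals as above.
SESN1: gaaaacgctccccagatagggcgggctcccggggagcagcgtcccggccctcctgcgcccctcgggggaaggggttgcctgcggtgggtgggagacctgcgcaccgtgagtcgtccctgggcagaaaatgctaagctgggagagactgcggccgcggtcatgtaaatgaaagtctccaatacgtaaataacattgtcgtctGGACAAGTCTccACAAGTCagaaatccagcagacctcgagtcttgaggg
MDM2: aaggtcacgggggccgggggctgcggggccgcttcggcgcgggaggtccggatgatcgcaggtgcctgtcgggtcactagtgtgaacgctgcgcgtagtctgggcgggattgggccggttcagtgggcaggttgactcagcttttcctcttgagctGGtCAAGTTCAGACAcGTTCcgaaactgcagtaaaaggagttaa

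The resistant MR49F line was set against LNCaP to ask how the p53 target genes differ between the resistant line and the sensitive line it comes from. SPATA18, PHLDA3, GDF15, SESN1 and FAS were more than 2-fold lower in MR49F, and the polo-like kinase genes PLK2 and PLK3 and the death receptor gene TNFRSF10B were higher. Of the 36 tested genes, 16 fell (44.4%) and 3 rose (8.33%), where 22.8% of all tested genes fell and 24.1% rose (adjusted p under 0.05, edgeR quasi-likelihood test, Benjamini-Hochberg adjustment over all tested genes). Either call was thus made for 19 of the 36 genes (52.8%), against 47.0% of all tested genes. Past 2-fold, 5 fell and none rose, against 7.53% and 5.65% of all tested genes. MR49F and LNCaP replicates stood apart for 21 of the 36 genes, all 19 called ones among them, and for 59.8% of all tested genes. The median log2 fold change was -0.18 over the 36 genes and 0.01 over all tested genes.

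C4-2 was set against the same 3 LNCaP libraries, so the comparisons share their control and their values are given side by side. CYFIP2, SESN1 and SPATA18 were more than 2-fold lower in C4-2, and MDM2, CDKN1A, CCNG1, PMAIP1 and TRIAP1 were lower by smaller factors. Of the 36 tested genes, 21 fell (58.3%) and 2 rose (5.56%), where 23.5% of all tested genes fell and 26.2% rose. Either call was made for 63.9% of the 36 genes and 49.7% of all tested genes. Past 2-fold, 3 fell and none rose, against 4.08% and 9.12% of all tested genes. C4-2 and LNCaP replicates stood apart for 25 of the 36 genes and 55.7% of all tested genes. The median log2 fold change was -0.31 over the 36 genes, while that of all tested genes was close to 0 at -0.0012. Falls numbered 19 to 23 with any 1 library left out. The 2 rises, of PERP and TNFRSF10A, were less steady. None was called without LNCaP replicate 1 or without C4-2 replicate 3, 1 without LNCaP replicate 2 or 3, and 4 without the deeply sequenced C4-2 replicate 1. With that library left out, 23 genes fell.

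**Figure D1:**
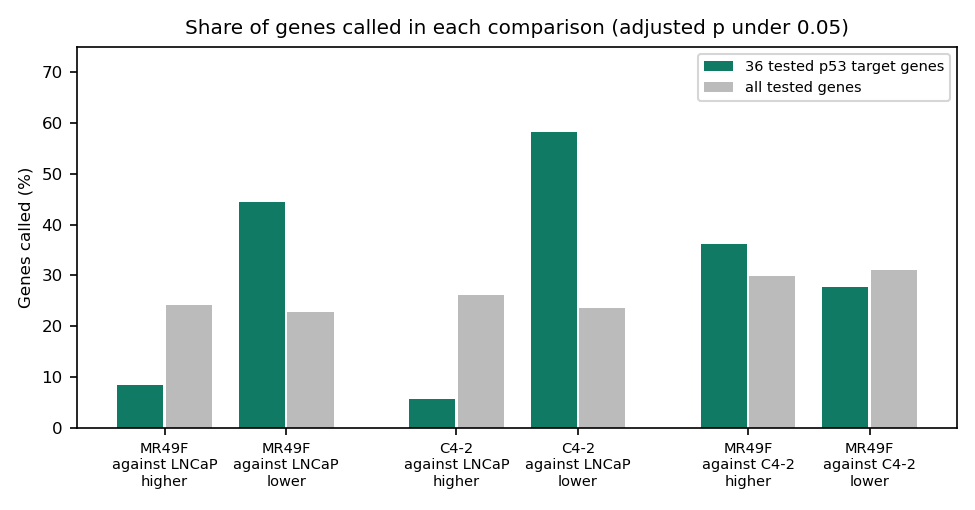
Percent of genes called higher or lower (adjusted p under 0.05) in each of the 3 comparisons, for the 36 tested p53 target genes (green bars) and for all tested genes (grey bars). Lower calls took 44.4% of the p53 target genes in MR49F and 58.3% in C4-2 against LNCaP, beside 22.8% and 23.5% of all tested genes.

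**Figure D2:**
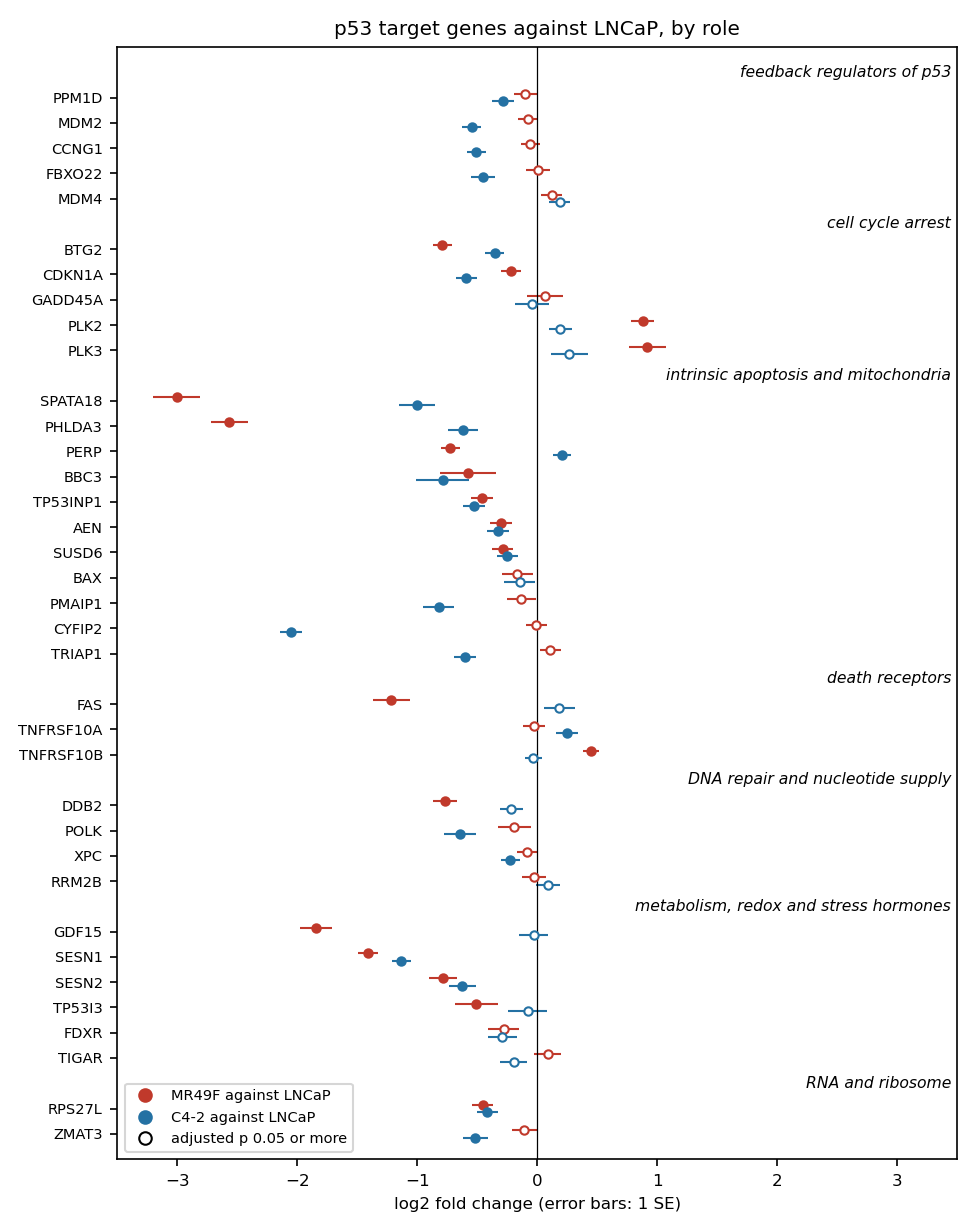
Log2 fold change of each of the 36 tested p53 target genes in MR49F (red) and C4-2 (blue) against the shared LNCaP libraries, grouped by role, with error bars of 1 SE. Filled points passed an adjusted p of 0.05 and open points did not, and the largest falls are SPATA18 at -3.01 and PHLDA3 at -2.57 in MR49F and CYFIP2 at -2.05 in C4-2.

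MR49F was then tested directly against C4-2, which uses no LNCaP library in the contrast. Of the 36 genes, 13 were higher in MR49F (36.1%) and 10 were lower (27.8%), against 29.9% and 31.1% of all tested genes. Either call was made for 63.9% of the 36 genes and 61.0% of all tested genes, and replicates stood apart for 24 of the 36 and for 61.9%. These shares lay near those of all genes, and the median log2 fold change was 0.04 (0.15 without C4-2 replicate 1). Past 2-fold, CYFIP2 was higher and SPATA18, PHLDA3, GDF15 and FAS were lower, against 6.46% and 12.1% of all tested genes. PMAIP1, TRIAP1, MDM2, FBXO22, CCNG1 and ZMAT3 were also higher in MR49F than in C4-2, whereas PERP, DDB2 and BTG2 were among those lower.

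The feedback regulators of p53 fell in C4-2 with the exception of MDM4, and none was called in MR49F. MDM2 (ENSG00000135679, GRCh38 chromosome 12, 68808176 to 68850686) stood at 375, 382 and 384 CPM in the LNCaP replicates, 352, 340 and 390 in MR49F and 234, 280 and 269 in C4-2. The C4-2 libraries all lay below the other 6, while MR49F overlapped LNCaP. The mean fell from 380 ± 4.88 CPM in LNCaP to 261 ± 24.0 in C4-2 (SD, n = 3), or -0.55 on the log2 scale (SE 0.0813, edgeR adjusted p = 1.15e-05), and MR49F was higher than C4-2 by 0.47 (SE 0.0812, edgeR adjusted p = 4.13e-05). In MR49F the log2 fold change against LNCaP was -0.08 (SE 0.0809, edgeR adjusted p = 0.472).

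MDM4 (ENSG00000198625, chromosome 1, 204516379 to 204558120), which binds p53 and blocks its transactivation domain, showed 77.8, 81.7 and 78.6 CPM in LNCaP, 87.8, 83.3 and 87.6 in MR49F and 79.3, 92.9 and 101 in C4-2. Its log2 fold changes against LNCaP were 0.12 (SE 0.0905, edgeR adjusted p = 0.295) and 0.19 (SE 0.0897, edgeR adjusted p = 0.0914). C4-2 replicate 1 was the lowest of its line, and without it MDM4 was called higher in C4-2 (log2 fold change 0.29, edgeR adjusted p = 0.0024). CCNG1, the cyclin G1 gene, whose product acts with a phosphatase on MDM2, fell from 370 ± 1.79 to 260 ± 13.9 CPM in C4-2 and stood at 356 ± 33.1 in MR49F. FBXO22, a substrate-binding subunit of a ubiquitin ligase, fell from 102 ± 6.51 to 75.6 ± 9.50 CPM in C4-2 and stood at 103 ± 9.17 in MR49F. PPM1D, a phosphatase that dampens damage signalling, was lower in C4-2 by a log2 fold change of -0.29 (edgeR adjusted p = 0.016), a call lost without LNCaP replicate 1 or C4-2 replicate 3 and without a count filter (edgeR adjusted p 0.05055 to 0.1026).

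Genes of cell cycle arrest moved in different directions. CDKN1A (ENSG00000124762, chromosome 6, 36676460 to 36687339) encodes p21, the cyclin-dependent kinase inhibitor through which p53 halts the cycle. It stood at 119, 115 and 109 CPM in LNCaP, 100, 100 and 93.9 in MR49F and 83.5, 68.2 and 74.0 in C4-2. The 3 lines did not overlap, with LNCaP highest and C4-2 lowest. The difference of C4-2 from LNCaP was -0.59 on the log2 scale (SE 0.0861, edgeR adjusted p = 8.93e-06) and MR49F was higher than C4-2 by 0.37 (SE 0.0863, edgeR adjusted p = 8.58e-04). The smaller fall in MR49F (-0.22, SE 0.0859, edgeR adjusted p = 0.0431) was lost with DESeq2 (adjusted p = 0.0629) and without LNCaP replicate 1 or 2, any MR49F replicate or C4-2 replicate 3 (edgeR adjusted p 0.0560 to 0.136).

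BTG2, an antiproliferative p53 target, was highest in LNCaP (91.8 ± 2.22 CPM), intermediate in C4-2 (72.1 ± 2.39) and lowest in MR49F (53.1 ± 1.85), and all 3 differences passed the test. PLK2 and PLK3, stress-responsive kinases, rose in MR49F. PLK2 went from 27.5 ± 0.759 to 50.6 ± 3.67 CPM and PLK3 from 7.16 ± 0.299 to 13.5 ± 0.561, log2 fold changes of 0.88 and 0.92. In C4-2 they stood at 31.3 ± 1.09 and 8.21 ± 1.54 CPM and did not pass against LNCaP (edgeR adjusted p = 0.102 and 0.162). Both were higher in MR49F than in C4-2 (log2 fold changes 0.69 and 0.65). GADD45A, a damage-inducible growth arrest gene, was at 10.8 to 11.8 CPM on average in the 3 lines, with no call in any comparison.

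**Figure D3:**
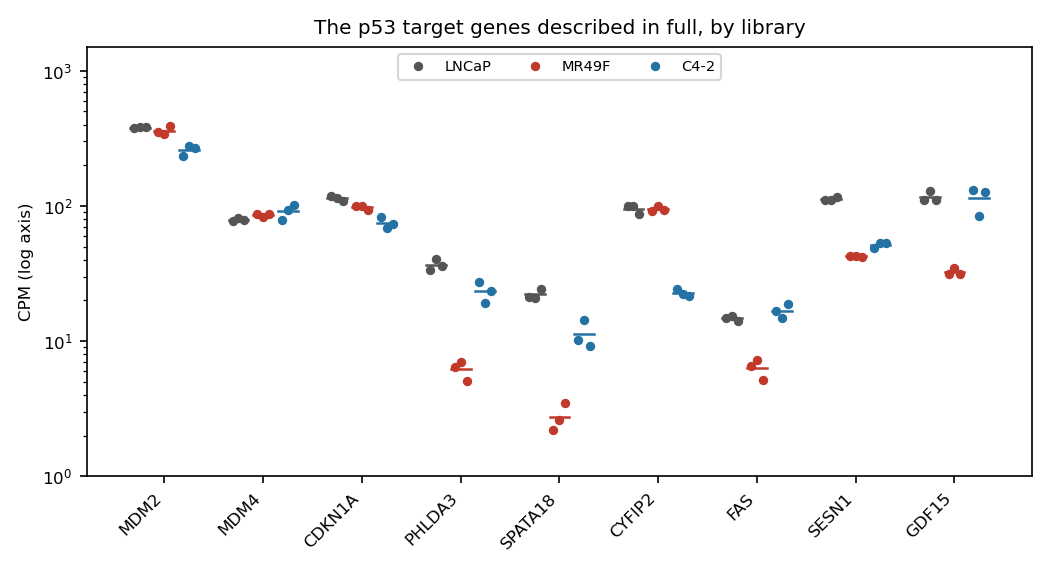
CPM on a log axis of the 9 p53 target genes described in full, in each of the 9 libraries. Points are libraries, short bars are means of 3 replicates and colours mark the lines. PHLDA3 and SPATA18 in MR49F and CYFIP2 in C4-2 lie well below LNCaP.

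The intrinsic apoptosis and mitochondrial group held 11 genes of mixed roles, including TRIAP1, which counters apoptosis, and SUSD6, a membrane protein gene. In MR49F 7 of the 11 fell (63.6%) and none rose. There 44.4% of the 36 tested p53 target genes and 22.8% of all tested genes fell, while 8.33% and 24.1% rose. In C4-2, 9 fell (81.8%) and 1 rose (9.09%). There 58.3% of the 36 genes and 23.5% of all tested genes fell, while 5.56% and 26.2% rose. SPATA18 (ENSG00000163071, chromosome 4, 52051331 to 52097292), which acts in the removal of damaged mitochondria, had 21.3, 21.02 and 24.3 CPM in LNCaP, 2.19, 2.61 and 3.46 in MR49F and 10.1, 14.4 and 9.16 in C4-2. The lines did not overlap. The level was 8.03-fold lower in MR49F (log2 fold change -3.01, SE 0.196, edgeR adjusted p = 7.36e-11) and 2.01-fold lower in C4-2 (-1.004, SE 0.152, edgeR adjusted p = 1.43e-05), and MR49F was lower than C4-2 by -2.001 (SE 0.206).

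PHLDA3 (ENSG00000174307, chromosome 1, 201464383 to 201469237), an inhibitor of the survival kinase AKT, gave 33.4, 40.3 and 36.1 CPM in LNCaP, 6.46, 7.01 and 5.07 in MR49F and 27.3, 19.1 and 23.5 in C4-2. Again the lines did not overlap and MR49F was lowest. The level was 5.92-fold lower in MR49F (log2 fold change -2.57, SE 0.156, edgeR adjusted p = 2.14e-11) and 1.53-fold lower in C4-2 (-0.62, SE 0.126, edgeR adjusted p = 3.91e-04). The direct difference of MR49F from C4-2 was -1.95 (SE 0.157, edgeR adjusted p = 1.17e-09).

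CYFIP2 (ENSG00000055163, chromosome 5, 157266079 to 157395595), a subunit of the actin-regulating WAVE complex, fell in C4-2 and had no call in MR49F against LNCaP. It stood at 99.5, 100 and 86.7 CPM in LNCaP, 92.4, 99.6 and 93.7 in MR49F and 24.4, 22.4 and 21.6 in C4-2. The C4-2 level was 4.14-fold lower than LNCaP (log2 fold change -2.05, SE 0.0929, edgeR adjusted p = 2.25e-13), MR49F overlapped LNCaP (-0.01, SE 0.0850, edgeR adjusted p = 0.960), and MR49F exceeded C4-2 by 2.04 (SE 0.0928).

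The BH3-only genes fell in C4-2. PMAIP1, which encodes NOXA, went from 25.4 ± 2.37 to 14.4 ± 0.220 CPM (log2 fold change -0.82) and stood at 23.3 ± 3.97 in MR49F. BBC3, which encodes PUMA, was low in every line, with means of 4.92 ± 1.45 CPM for LNCaP, 3.31 ± 0.209 for MR49F and 2.80 ± 0.461 for C4-2. LNCaP replicate 2 stood above the others at 6.59 CPM, and without it neither BBC3 call was kept (log2 fold change -0.32, edgeR adjusted p = 0.322 in MR49F, and -0.52, edgeR adjusted p = 0.0813 in C4-2). The MR49F call of BBC3 was lost in 10 of 16 settings in all, among them DESeq2 (adjusted p = 0.154), the replicate block (0.0653) and those without any 1 MR49F replicate (0.0753 to 0.122). BAX, the pore-forming effector, had no call, with means of 33.3 ± 1.74, 29.6 ± 4.88 and 29.2 ± 5.03 CPM in LNCaP, MR49F and C4-2. Without C4-2 replicate 1 it was called lower in C4-2 (-0.33, edgeR adjusted p = 0.0193).

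TP53INP1, a stress-induced regulator of autophagy and cell death, fell from 445 ± 12.8 CPM to 324 ± 23.2 in MR49F and 310 ± 44.9 in C4-2. AEN, an apoptosis-enhancing nuclease, fell from 87.2 ± 4.11 to 70.9 ± 7.21 and 69.3 ± 5.49 CPM, the MR49F call being lost without MR49F replicate 3 (edgeR adjusted p = 0.0558). The membrane protein gene SUSD6 fell by -0.29 in MR49F and -0.25 in C4-2, calls that were lost without LNCaP replicate 3 (edgeR adjusted p = 0.0620 and 0.117), and in C4-2 also without C4-2 replicate 1 (0.0646), without a count filter (0.0693) and at equal depth (0.154). For TP53INP1, AEN and SUSD6 the direct test of MR49F against C4-2 gave no call, with log2 differences of 0.06, 0.02 and -0.04 (SE 0.0923, 0.0920 and 0.0893). TRIAP1, a small mitochondrial protein that counters apoptosis, fell from 73.2 ± 3.46 to 47.8 ± 4.58 CPM in C4-2 and stood at 79.0 ± 4.08 in MR49F. PERP, a membrane protein of desmosomes and apoptosis, fell in MR49F from 266 ± 10.99 to 161 ± 13.6 CPM. It was higher in C4-2 (308 ± 6.01 CPM, log2 fold change 0.21, edgeR adjusted p = 0.0286), a call lost without LNCaP replicate 1 or 2 or C4-2 replicate 3 (edgeR adjusted p 0.0628 to 0.149) and at equal depth (0.0529).

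The death receptors differed from one another in MR49F. FAS (ENSG00000026103, chromosome 10, 88990582 to 89015785) had 14.8, 15.2 and 14.1 CPM in LNCaP, 6.57, 7.24 and 5.19 in MR49F and 16.6, 14.9 and 18.9 in C4-2. MR49F lay below all other libraries, 2.33-fold below LNCaP (log2 fold change -1.22, SE 0.153, edgeR adjusted p = 1.51e-06) and 2.64-fold below C4-2 (-1.40, SE 0.147, edgeR adjusted p = 6.16e-08), while C4-2 and LNCaP overlapped. TNFRSF10B, a receptor for the death ligand TRAIL, rose in MR49F from 261 ± 2.81 to 356 ± 10.9 CPM and stood at 255 ± 3.61 in C4-2. The other TRAIL receptor gene, TNFRSF10A, was called higher in C4-2 only by a small margin (60.8 ± 1.18 against 51.2 ± 4.33 CPM, edgeR adjusted p = 0.0303), and this call was lost with DESeq2 (adjusted p = 0.0633) and without LNCaP replicate 1 or 3 or C4-2 replicate 3 (edgeR adjusted p 0.0750 to 0.195). EDA2R, a receptor of the same family, was not tested, with 1 count in all for LNCaP, 4 for MR49F and 2 for C4-2.

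Of the repair genes, DDB2, which recognises ultraviolet lesions, fell in MR49F from 49.9 ± 3.43 to 29.3 ± 1.73 CPM (log2 fold change -0.77). In C4-2 it stood at 42.6 ± 3.25 CPM (edgeR adjusted p = 0.062) and was called lower without C4-2 replicate 1 (0.0108) or LNCaP replicate 3 (0.0493). XPC, its partner in nucleotide excision repair, was lower in C4-2 by -0.22 (edgeR adjusted p = 0.0274). That call was lost without LNCaP replicate 1 or 2 or C4-2 replicate 3 and without a count filter (edgeR adjusted p 0.0761 to 0.101). POLK, a translesion polymerase, fell from 58.4 ± 4.12 to 38.4 ± 7.70 CPM in C4-2 and stood at 51.1 ± 8.74 in MR49F. RRM2B, which supplies nucleotides for repair, averaged 134 ± 5.75, 132 ± 14.5 and 144 ± 21.5 CPM in LNCaP, MR49F and C4-2 with no call. Without C4-2 replicate 1 it was called higher in C4-2 than in LNCaP (0.20, edgeR adjusted p = 0.0344) and lower in MR49F than in C4-2 (-0.23, edgeR adjusted p = 0.013).

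In the metabolic and stress hormone group, 4 of 6 tested genes fell in MR49F (66.7%, against 22.8% of all tested genes) and none rose. In C4-2, 2 of 6 fell (33.3%), near the 23.5% of all tested genes, and none rose. SESN1 (ENSG00000080546, chromosome 6, 108986437 to 109094819) encodes a sestrin, which restrains the growth kinase complex mTORC1. It stood at 111, 111 and 116.6 CPM in LNCaP, 42.8, 42.5 and 41.96 in MR49F and 48.5, 53.3 and 53.5 in C4-2. All derivative libraries were below all LNCaP libraries, with log2 fold changes of -1.41 (SE 0.0831, edgeR adjusted p = 1.35e-11) and -1.13 (SE 0.0808, edgeR adjusted p = 3.09e-10). MR49F was slightly below C4-2 (-0.28, SE 0.0846, edgeR adjusted p = 0.00745). Its relative SESN2 fell from 49.2 ± 5.31 to 28.6 ± 3.62 CPM in MR49F and 31.6 ± 3.57 in C4-2.

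GDF15 (ENSG00000130513, chromosome 19, 18374731 to 18389176), a secreted stress hormone of the TGF-beta superfamily, had 112, 128 and 111 CPM in LNCaP, 31.6, 34.8 and 31.1 in MR49F and 132, 83.8 and 126 in C4-2. MR49F lay below every other library, 3.60-fold below LNCaP (log2 fold change -1.85, SE 0.134, edgeR adjusted p = 5.39e-10) and 3.53-fold below C4-2 (-1.82, SE 0.133, edgeR adjusted p = 3.50e-10). C4-2 had no call against LNCaP (-0.03, SE 0.122, edgeR adjusted p = 0.871), with C4-2 replicate 2 below its fellows. TP53I3, a quinone oxidoreductase, averaged 6.72 ± 0.953 CPM for LNCaP, 4.77 ± 0.250 for MR49F and 6.30 ± 0.639 for C4-2. Its falls in MR49F against LNCaP (edgeR adjusted p = 0.0253) and C4-2 (0.0357) were lost with DESeq2 (adjusted p = 0.108 and 0.170) and at equal depth (0.114 and 0.476). They were also lost without MR49F replicate 1 or 3 (edgeR adjusted p 0.0596 to 0.0919), the former without LNCaP replicate 1 or 2 (0.1103 and 0.0693), and the latter without MR49F replicate 2, C4-2 replicate 1 or C4-2 replicate 3 (0.0626 to 0.166) and with the replicate block (0.0614). FDXR, a mitochondrial electron donor, and TIGAR, a regulator of glycolysis, had no call against LNCaP. FDXR had log2 fold changes of -0.28 in MR49F (edgeR adjusted p = 0.0815) and -0.29 in C4-2 (edgeR adjusted p = 0.0592), and without C4-2 replicate 1 both were called (0.0303 and 0.00428). The MR49F value was also called without C4-2 replicate 2 (0.0349) and with only the 6 libraries compared (0.0174), and the C4-2 value with the replicate block (0.0418) and at equal depth (0.00584). TIGAR was higher in MR49F than in C4-2 by 0.28 (edgeR adjusted p = 0.0363), a call lost with DESeq2 (adjusted p = 0.0731), without a count filter (0.0986), with only the 6 libraries compared (0.0778), and without LNCaP replicate 1 or 2, MR49F replicate 1 or 3 or C4-2 replicate 3 (edgeR adjusted p 0.0505 to 0.158).

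ZMAT3, an RNA-binding regulator of splicing and mRNA stability, fell in C4-2 from 53.2 ± 0.774 to 37.9 ± 5.25 CPM and stood at 49.4 ± 3.51 in MR49F. RPS27L, a variant ribosomal protein gene that resembles RPS27, fell from 131 ± 0.639 CPM to 95.4 ± 7.34 in MR49F and 97.4 ± 10.5 in C4-2. Reads that RPS27L shares with RPS27 may have been split or dropped. FBXO22, XPC, POLK, RPS27L, TP53I3, TP53INP1, FAS, TNFRSF10A and TNFRSF10B also overlap a gene on the other strand that had over 100 counts in the 9 libraries. The strand setting of the counting is not given in the sources used here, so the values of these genes are uncertain.

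The 9 genes with a pair of p53 units in their promoter window did not move as 1 block. In MR49F against LNCaP, 6 of them fell (SESN1, FAS, AEN, DDB2, RPS27L and GDF15), none rose and 3 had no call. The share of falls there was 44.4% among the 36 tested p53 target genes and 22.8% among all tested genes. In C4-2, 5 fell (MDM2, SESN1, AEN, RPS27L and PMAIP1), none rose and 4 had no call, where 58.3% of the 36 genes and 23.5% of all tested genes fell. In the direct test, MDM2 and PMAIP1 were higher and SESN1, FAS, DDB2 and GDF15 lower in MR49F than in C4-2. Of the 36 genes 36.1% were higher and 27.8% lower there, and of all tested genes 29.9% were higher and 31.1% lower.

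Levels of different genes were compared per kilobase of all annotated exons of a gene joined, which is not the length of the expressed transcripts. The joined length was 3096 bases for CCNG1 and 9127 for RPS27L, so the order depends on the annotation. On this scale CCNG1 ranked highest of the 37 genes in each line. Its level was 119 ± 0.578 CPM per kb in LNCaP, 115 ± 10.7 in MR49F and 84.0 ± 4.50 in C4-2, above every replicate of the next gene. The order below it differed between the lines. In LNCaP it was followed by TP53INP1 (78.5 ± 2.26 CPM per kb), PERP (62.0 ± 2.56) and GDF15 (56.0 ± 4.61), of which PERP and GDF15 overlapped. In MR49F, TNFRSF10B came next (69.1 ± 2.11), ahead of TP53INP1 (57.0 ± 4.08) and TRIAP1 (54.8 ± 2.83), which overlapped each other. In C4-2, PERP came next (71.7 ± 1.40), ahead of TP53INP1 (54.7 ± 7.91) and GDF15 (54.6 ± 12.6), which overlapped. EDA2R was last in every line, preceded by BBC3 in LNCaP and C4-2 (1.55 ± 0.456 and 0.881 ± 0.145 CPM per kb) and by SPATA18 in MR49F (0.557 ± 0.131).

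The chromosomal surroundings of the genes were examined after their values were seen, because neighbouring genes can shift together between lines. For each gene the tested genes within 5 Mb were taken and their log2 fold changes summarised. Of all tested genes, 26.2% were higher and 23.5% lower in C4-2 than in LNCaP, and 24.1% and 22.8% in MR49F. CDKN1A fell in C4-2 although its surroundings were higher. The median of its 129 tested neighbours was 0.44, with 82 higher and 4 lower. PMAIP1 also fell in C4-2 beside neighbours with a median of 0.27 (14 of 31 higher, 6 lower). TNFRSF10A was higher in C4-2 by 0.25, beside neighbours with a median of 0.23 (24 of 59 higher, 7 lower). TNFRSF10B had much the same surroundings in C4-2, with a median of 0.25 (26 of 61 higher, 7 lower), but was at -0.03 with no call. RRM2B, at 0.09 with no call in C4-2, had neighbours with a median of 0.35 (21 of 38 higher, 1 lower). SPATA18 lay among genes that were lower in C4-2, with a median of -0.37 and 26 of 41 lower, but its neighbours had a median of 0.07 in MR49F, where SPATA18 was 8.03-fold lower. GDF15 in MR49F lay among 165 neighbours with a median of -0.33, of which 84 were lower and 9 higher. TP53I3 was lower in MR49F beside neighbours with a median of 0.48 (52 of 78 higher). For SESN1, PHLDA3 and FAS in MR49F the neighbour medians were -0.02, 0.05 and -0.09, for CYFIP2 in C4-2 it was -0.10, and for SESN1 in C4-2 it was close to 0 at 0.0039. Whether regional shifts play a part in these values was not tested.

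**Figure D4:**
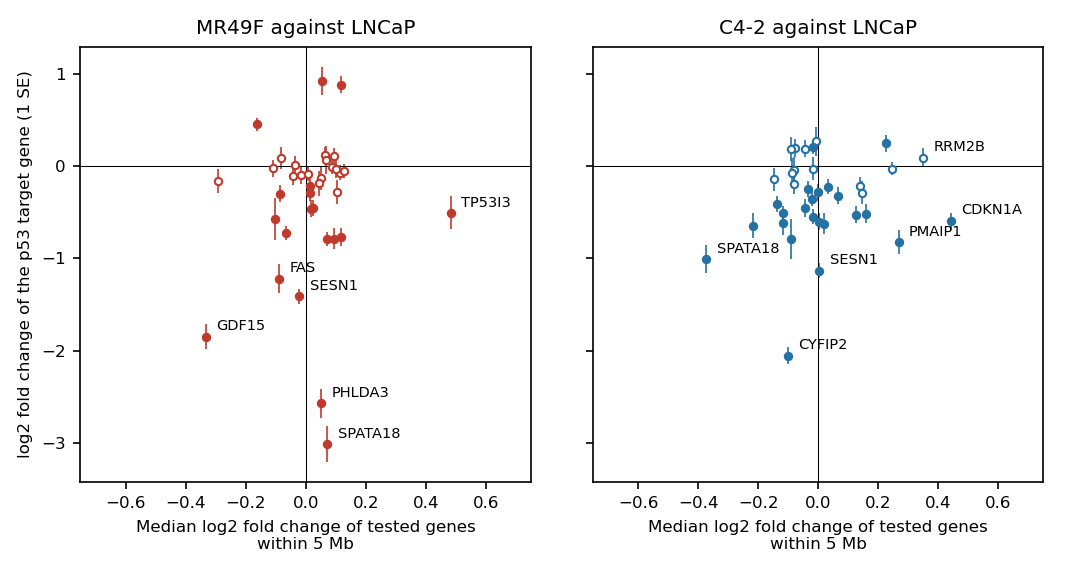
Log2 fold change of each tested p53 target gene (vertical axis, error bars 1 SE) against the median log2 fold change of the tested genes within 5 Mb of it (horizontal axis), for MR49F (left) and C4-2 (right) against LNCaP. Filled points passed an adjusted p of 0.05. CDKN1A in C4-2 is low although its neighbours have a median of 0.44, and GDF15 in MR49F has neighbours with a median of -0.33.

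Of 31 tested genes for relatives, kinases, ligases and cofactors of p53, 6 rose and 8 fell in MR49F, and 8 rose and 8 fell in C4-2. These shares lay near those of all tested genes (24.1% and 22.8% in MR49F, 26.2% and 23.5% in C4-2). SMYD2, a lysine methyltransferase that represses p53, rose from 10.4 ± 1.07 CPM in LNCaP to 32.3 ± 1.76 in MR49F and 22.6 ± 1.82 in C4-2 (log2 fold changes 1.65 and 1.15). USP10, a deubiquitinase that stabilises p53, fell in MR49F from 106 ± 3.02 to 60.9 ± 4.19 CPM and stood at 114 ± 3.16 in C4-2. RCHY1, a ubiquitin ligase for p53, fell in C4-2 from 72.4 ± 3.02 to 42.7 ± 2.29 CPM, as did the arginine methyltransferase gene PRMT5 (205 ± 6.41 to 131 ± 4.27 CPM). The coactivator gene EP300 fell in MR49F (-0.72) and SIRT1, a deacetylase, rose (0.58).

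A further 60 direct p53 targets outside the 37 genes were looked up, of which 55 were tested. In MR49F 22 fell (40%) and 11 rose (20%, against 24.1% of all tested genes), with a median log2 fold change of -0.22. The share of falls there was 44.4% among the 36 tested genes described above and 22.8% among all tested genes. In C4-2 14 fell and 12 rose (21.8%, against 26.2% of all tested genes), with a median of 0.05. The share of falls in C4-2 was 25.5% in this list and 58.3% among the same 36 genes, beside 23.5% of all tested genes. In the direct test 27 of the 55 (49.1%) were lower in MR49F than in C4-2 and 11 (20%) were higher, with a median of -0.25. There 27.8% of the 36 genes and 31.1% of all tested genes were lower, and 36.1% and 29.9% were higher. No test of the difference between the lists was made. ENC1, an actin-binding protein gene, fell in MR49F from 57.1 ± 3.61 to 8.77 ± 1.22 CPM and GLS2, a mitochondrial glutaminase, from 15.8 ± 1.99 to 4.47 ± 0.371. DRAM1, an autophagy regulator, fell in MR49F (24.3 ± 1.01 to 10.2 ± 0.323 CPM) and rose in C4-2 (43.1 ± 1.00). CASP10, an initiator caspase, rose in C4-2 from 1.37 ± 0.233 to 10.6 ± 0.433 CPM, and SERPINB5, the maspin gene, fell from 14.6 ± 1.89 to 4.08 ± 0.317.

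The cell cycle genes that p53 lowers through p21 gave the third list. Of 32 tested, 11 rose (34.4%) and 1 fell in C4-2, with a median log2 fold change of 0.19, where 26.2% of all tested genes rose and 23.5% fell. In MR49F 5 rose (15.6%) and 15 fell (46.9%), with a median of -0.21, where 24.1% of all tested genes rose and 22.8% fell. In the direct test 20 of the 32 (62.5%) were lower in MR49F than in C4-2 and 3 (9.38%) were higher, against 31.1% and 29.9% of all tested genes. MCM3, a subunit of the replicative helicase, rose from 105 ± 8.04 CPM in LNCaP to 219 ± 4.23 in C4-2. The mitotic kinase gene AURKA rose in C4-2 from 53.8 ± 2.02 to 88.0 ± 4.19 CPM. PLK1, another mitotic kinase gene, fell in MR49F from 105 ± 3.62 to 71.1 ± 4.75 CPM, and KIF23, a kinesin of cell division, rose to 140 ± 0.954 from 76.5 ± 3.25.

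**Figure D5:**
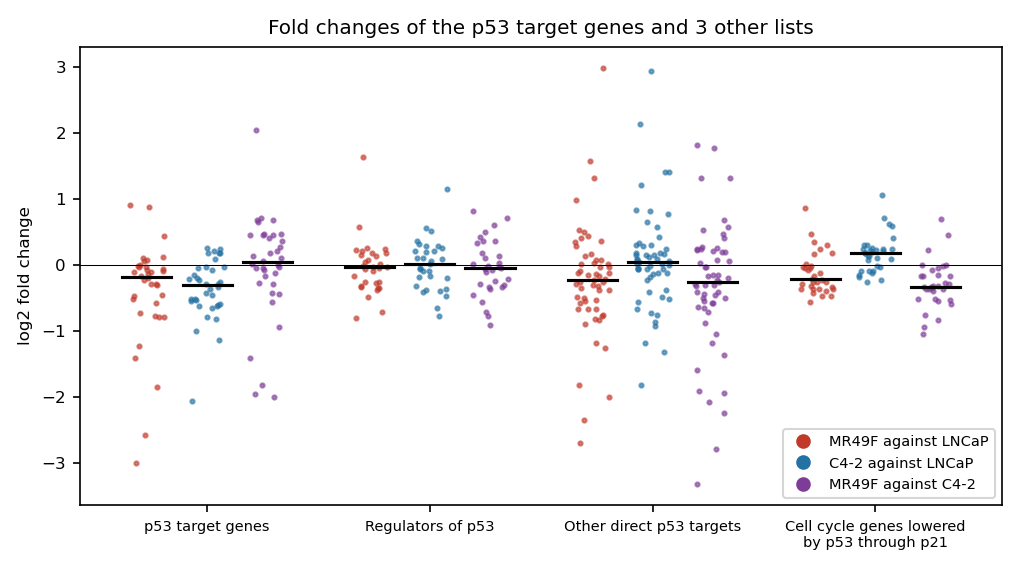
Log2 fold changes of the 36 tested p53 target genes and of 3 other lists (regulators of p53, other direct p53 targets, and cell cycle genes lowered by p53 through p21) in the 3 comparisons. Points are genes and black bars are medians, which for the p53 target genes are -0.18 in MR49F and -0.31 in C4-2 against LNCaP.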

How the data were processed

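Whole-number gene counts deposited by the authors, with no normalization, were the only values used. Per the labels, RNA was poly(A)-selected and libraries were made with a stranded TruSeq kit. Per the submitters' processing notes the tools included HTSeq 0.6.1, TopHat2, FastQC 0.11.3 and edgeR 3.12.1, with GRCh38 as the build and no roles stated. The strand setting, annotation release and filters of the counting were not given in the sources used here. The 9 columns named for LNCaP, MR49F and C4-2 samples were used. Another 3 columns match no sample title and were left out, so the planned comparison of C4-2R with C4-2 was not made and the fit held 9 libraries. Symbols matched 56948 of 57992 entries, and 57388 were in GENCODE 29 (GRCh38), which gave coordinates and exon lengths.

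Counts were tested in edgeR 4.0.16 (R 4.3.3) with the robust quasi-likelihood test, TMM scaling, filterByExpr by line, 1 mean per line and 6 residual degrees of freedom. Genes are called changed where p, adjusted by Benjamini-Hochberg across the whole set of tested genes, was under 0.05. SE was taken as the size of the log2 fold change over the square root of F. The test was checked on simulated data. The members and lists were chosen with earlier results of these data known. Full values are given for MDM2, MDM4, CDKN1A and for members changed at least 2-fold without overlap of replicates in any comparison. Of each other list, named genes come from the 4 lowest adjusted p-values per comparison, and DRAM1 in C4-2 was added after its values were seen. Alternatives were DESeq2 1.42.0, limma 3.58.1 voom, RLE scaling, no count filter, only the 6 libraries compared, a replicate block, thinning of every library to the shallowest (equal depth) and leaving out each library. A withheld gene is not reported here. P-values rest on the spread between replicates, with 1 estimate per gene shared by the 3 lines, so they do not reflect only the lines compared. The spread was unequal. The median SD over the 36 tested p53 target genes was 4.72% of the mean in LNCaP, 7.27% in MR49F and 10.2% in C4-2.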

Additional observations from a re-analysis of the deposited data

How the results depend on the processing

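Under the 16 alternatives, no called log2 fold change of the 36 tested genes changed direction. Falls in MR49F numbered 12 to 17 and rises 3 to 3 when 1 library was left out, against 16 and 3. Falls in C4-2 numbered 19 to 23, against 21. The 2 rises in C4-2 became 1 with DESeq2 and 1 with every library thinned to the shallowest, and 0 to 4 when 1 library was left out. In MR49F against C4-2, rises numbered 11 to 13 and falls 8 to 10, and the median log2 fold change ran from 0.0143 to 0.147, the highest being without C4-2 replicate 1. Correlations across genes of deviations from the line mean ran from -0.0832 to 0.0562 for same-numbered replicates of different lines. For replicates of different number they ran from -0.115 to 0.127. These values cannot show whether same-numbered replicates share more than a number. With the replicate block, 18 of 19 calls were kept in MR49F, 23 of 23 in C4-2 and 22 of 23 in MR49F against C4-2. EDA2R had too few counts to test, with 2 counts even in the deeply sequenced C4-2 replicate 1.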
